A study of Mus musculus with 10 samples.

Results

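The genes described here are genes of the mouse named for the histone clusters, measured by RNA sequencing of the retina. The annotation gives 59 as protein coding and 3 as pseudogenes, namely Hist1h2aj, Hist1h2al and Hist3h2bb-ps. The genes were chosen as every row of the deposited count table whose gene name begins with Hist1h, Hist2h, Hist3h or Hist4h, which gave 62 genes of 36115. By histone type there were 6 genes for H1, 15 for H2A, 18 for H2B, 10 for H3 and 13 for H4. By gene cluster there were 53 Hist1, 5 Hist2, 3 Hist3 and 1 Hist4 genes. Among GENCODE genes with such names, 8 more were not analysed here, namely Hist2h2aa1, Hist2h2aa2, Hist2h3c1, Hist2h3b, Hist2h2bb, Hist1h2an, Hist1h2ao and Hist1h2ap.

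The 10 libraries came from retinas of naive mice at 3 months of age, all labelled with a C57BL/6 background. The genotype label was B6.129S2-Il6tm1Kopf/J, a line in which the interleukin-6 gene was disrupted throughout the body, for 5 libraries (K1 to K5), and wild type for the other 5 (W1 to W5). The labels name no sex, litter or batch and do not say that each library was a separate animal, so p-values here rest on the variation among these libraries, part of which may be technical. Total counts were 32783048 to 38517067 in libraries labelled knockout and 30433373 to 38857374 in wild-type libraries. The counts of Il6 itself went against the labels: it had 3, 3, 5, 7 and 4 counts in K1 to K5, against 0, 0, 1, 1 and 1 counts in W1 to W5. K1 to K5 are therefore called the libraries labelled knockout. The counts are over the whole gene and do not show which exons were read. Summed rod markers reached 54258 to 76447 CPM (counts scaled to library size with TMM factors) in libraries labelled knockout and 59793 to 75649 CPM in wild-type libraries.

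As background, H2A, H2B, H3 and H4 form the protein core that DNA wraps around, and H1 binds the linker DNA between the cores. Most genes of these clusters have no introns and are transcribed in S phase. Their mRNAs usually end in a stem-loop bound by the protein SLBP in place of a poly(A) tail, although some of these genes also give polyadenylated mRNAs in cells that no longer divide. The adult retina is made up almost wholly of cells that have left the cell cycle.

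The stem-loop is shown first because mRNAs that end in it are missed by a poly(A) selection. The labels do not say whether libraries were made by poly(A) selection or by depletion of ribosomal RNA. The motif searched, on the transcript strand only, was a stem that opens with GG and closes with GCC, with CT and A next to a loop of T, any base, T and any base. It was found in an annotated transcript of 39 of the 62 genes (62.9%), against 183 of 55450 genes in the annotation (0.330%). A match could lie anywhere in the transcript, so it does not show that the mRNA ends there or lacks a poly(A) tail. The 4 most frequent forms follow, with the loop in capitals. The form listed first was in 21 genes, among them Hist1h1c, Hist1h2ac, Hist3h2a and Hist3h2ba. The form below it was in 7 genes, all for H4, the form after that in 6, and the last in Hist1h4i and Hist2h4 only.
stem-loop in 21 genes: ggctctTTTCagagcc
stem-loop in 7 genes: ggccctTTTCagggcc
stem-loop in 6 genes: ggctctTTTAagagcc
stem-loop in Hist1h4i and Hist2h4: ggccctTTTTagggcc

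Hist2h2be, Hist1h2bc and Hist1h2al had no match to these letters in their annotated transcripts. The poly(A) signal AATAAA lay within 60 bases of an annotated transcript end in 14 of the 62 genes, among them Hist2h2be, Hist3h2ba, Hist3h2a, Hist1h1c, Hist1h2be and Hist2h4. No match in these windows says only that the letters are not in the annotated transcripts.

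Neighbouring histone genes that lie head to head share a promoter region. There were 12 such pairs, each of an H2A and an H2B gene except Hist1h2bh with Hist1h3f. Promoters of 300 bases (250 before and 50 after the start, RefSeq, GRCm38.p6) were found for 54 of the 62 genes. The 3 below were chosen by the results of their flanking genes, of which only Hist2h2be passed the test described below. The first lies between Hist1h2ac and Hist1h2bc, the next between Hist1h2ah and Hist1h2bk, and the last between Hist2h2ac and Hist2h2be. Each is on the minus strand and reads towards the H2A gene. Capitals mark the octamer ATGCAAAT, the CCAAT box and TATAAA, each on either strand.
Hist1h2ac promoter, chr13:23683910-23684209: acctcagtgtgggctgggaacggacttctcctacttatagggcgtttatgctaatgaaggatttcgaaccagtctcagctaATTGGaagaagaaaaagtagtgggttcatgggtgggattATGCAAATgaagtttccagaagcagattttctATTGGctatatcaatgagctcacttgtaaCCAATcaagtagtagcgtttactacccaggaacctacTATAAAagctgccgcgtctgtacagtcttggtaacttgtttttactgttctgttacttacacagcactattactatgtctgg
Hist1h2ah promoter, chr13:22035594-22035893: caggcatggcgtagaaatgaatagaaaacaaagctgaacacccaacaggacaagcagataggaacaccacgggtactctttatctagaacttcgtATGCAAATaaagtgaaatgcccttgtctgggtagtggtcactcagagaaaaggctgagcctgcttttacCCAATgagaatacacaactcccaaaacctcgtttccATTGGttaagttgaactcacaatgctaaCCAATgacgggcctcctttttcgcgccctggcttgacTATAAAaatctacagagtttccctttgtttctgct
Hist2h2ac promoter, chr3:96220831-96221130: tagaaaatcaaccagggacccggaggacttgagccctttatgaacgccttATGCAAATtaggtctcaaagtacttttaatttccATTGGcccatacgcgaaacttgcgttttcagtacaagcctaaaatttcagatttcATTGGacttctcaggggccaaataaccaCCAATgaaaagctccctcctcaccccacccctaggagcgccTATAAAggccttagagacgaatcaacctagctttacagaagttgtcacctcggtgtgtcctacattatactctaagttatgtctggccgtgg

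Each of the 3 held 1 octamer, 3 CCAAT boxes and 1 TATAAA, and none of these matches overlapped. Over all histone promoters the octamer was in 13 of 55 (23.6%), against 1.74% of 32851 RefSeq promoters. It was found in 7 of 13 H2A promoters and 6 of 16 H2B promoters, and in none of the H1, H3 and H4 promoters. The CCAAT box was in 83.6% of the histone promoters and 37.4% of all promoters, and TATAAA in 60% of the histone promoters and 13.6% of all promoters. The CCAAT box was in every H1, H2A, H2B and H3 promoter and in 3 of 12 H4 promoters. These are matches of letters, not measured binding sites.

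The counts of the 62 genes were very uneven. Hist1h1c, a linker histone of somatic cells, held 31.0% of all counts of the 62 genes, Hist1h2bc (H2B) 21.1%, Hist3h2a (H2A) 14.7% and Hist3h2ba (H2B) 9.76%. The top 4 genes together held 76.6%, and the top 10 held 94.6%. Per kb of exon, Hist1h1c stood at 80.6 ± 21.04 CPM per kb in libraries labelled knockout and 74.3 ± 18.5 CPM per kb in wild-type libraries (SD, n = 5 each). Hist1h2bc was at 82.6 ± 16.1 CPM per kb in libraries labelled knockout and 60.2 ± 8.23 CPM per kb in wild-type libraries. Hist3h2ba was at 67.7 ± 4.65 CPM per kb in libraries labelled knockout and 56.4 ± 3.10 CPM per kb in wild-type libraries. The ranges of mean ± SD of these 3 genes overlapped in the libraries labelled knockout. They were followed by Hist3h2a at 26.2 ± 2.69 CPM per kb in libraries labelled knockout and 26.8 ± 7.19 CPM per kb in wild-type libraries, which lay below them by more than the spread. The H4 gene with the highest level per kb was Hist1h4i, at 11.7 ± 2.11 CPM per kb in libraries labelled knockout and 10.5 ± 3.67 CPM per kb in wild-type libraries. The H3 gene with the highest was Hist2h3c2, at 8.17 ± 2.29 CPM per kb in libraries labelled knockout and 5.67 ± 1.61 CPM per kb in wild-type libraries. Hist1h4i had the higher mean of these last genes in both groups, and their ranges of mean ± SD overlapped.

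Near-identical copies limit what a count of one of these genes means. How strand, overlapping genes and reads with several matches were handled was not given in the sources used here. In 21 of the 62 genes, more than 50% of the 100-base windows of the transcripts were also found, on either strand, in a transcript of another gene. Hist2h2be, Hist2h4, Hist1h1a, Hist1h1b, Hist1h1t and Hist1h4d shared no such window. The 25 genes with enough counts to be tested had a median share of 15.1%, and the 37 left out had a median share of 46.4%. Median exon length was 1020 bases in the 25 and 473 bases in the 37. Exons of 18 of the 62 genes overlapped those of another annotated gene. Hist1h2be and Hist1h1e overlap on the same strand over 496 bases, and Hist3h2a overlaps Trim17 on the same strand over 708 bases, so counts of each of these are uncertain.

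**Figure D1:**
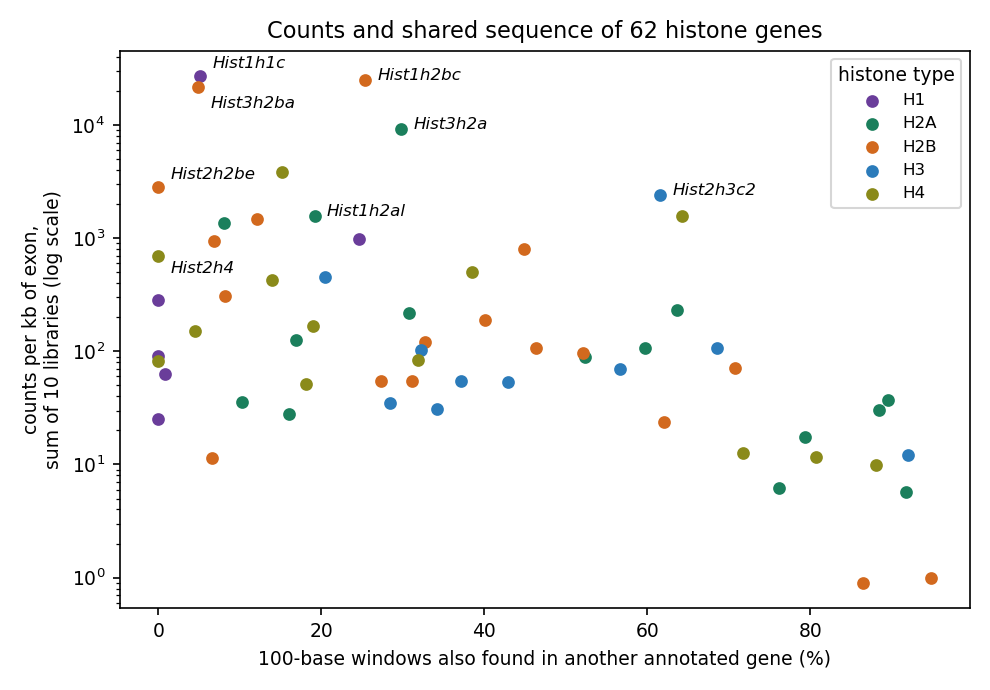
Counts per kb of exon summed over the 10 libraries (log scale) of the 62 histone genes against the percentage of their 100-base windows that another annotated gene also holds, coloured by histone type. The 4 genes with the most counts lie at 5.07% (Hist1h1c), 25.4% (Hist1h2bc), 29.8% (Hist3h2a) and 4.85% (Hist3h2ba), and the lowest counts belong to Hist1h2br at 86.4% and Hist1h2bq at 94.8%.

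The comparison asked how histone mRNA differed between retinas labelled Il6 knockout and wild type. Hist2h2be, an H2B gene, was the only histone gene to pass the test as higher in the libraries labelled knockout, at 24.2 ± 2.20 CPM against 18.3 ± 1.65 CPM in wild-type libraries (SD, n = 5 each). In the other direction only Hist1h2al passed, with no count in any library labelled knockout. Of the 25 genes tested, 1 was called higher and 1 lower by edgeR's quasi-likelihood test at an adjusted p under 0.05, while 0.859% and 1.17% of the 18965 genes tested were called. At an unadjusted p under 0.05, 12 of the 25 were higher and 2 lower, beside 6.78% and 7.03% of all tested genes. The log2 fold change was positive for 21 of the 25, beside 50.4% of all tested genes. Its median was 0.41 over the 25 and 0.0018 over all tested genes. With no low-count filter, which brings in all 62 histone genes, 38 of 62 fold changes were positive, beside 49.5% of all 36115 genes. Of these 62, 15 were higher and 5 lower at an unadjusted p under 0.05, beside 5.21% and 5.61% of all genes. The low-count filter was passed by 18 of the 25 in every library of both groups. Another 4 passed it in all libraries labelled knockout and in fewer wild-type libraries, and Hist1h2al passed only through the wild type.

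One library in each group stood apart in this direction. K4 was the highest of the 10 libraries for 13 of the 25 genes, and W5 the lowest for 11. Without K4, 21 of 25 fold changes were positive and 9 of 25 were higher at an unadjusted p under 0.05. In that fit 50.1% of all tested genes were positive and 5.05% were higher at that level. Without W5, 19 of 25 histone genes were positive and 10 of 25 were higher at that level, beside 49.8% and 6.01% of all tested genes. The median log2 fold change of the 25 was then 0.26. Summed markers of the retinal pigment epithelium, a tissue that lies against the retina, were 233 to 421 CPM in libraries labelled knockout and 43.5 to 540 CPM in wild-type libraries, with W5 the lowest. Their part in the result was not tested.

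The calls differed between tools. DESeq2 called 7 of the 62 histone genes higher and 2 lower, against 1.28% and 1.78% of the 24874 genes with an adjusted p. How many of the 62 had an adjusted p is not given here. The 7 were Hist2h2be, Hist1h2be, Hist1h2ac, Hist1h2bc, Hist3h2ba, Hist1h1e and Hist1h1d, and the 2 were Hist2h4 and Hist1h2al. Without the low-count filter edgeR called 5 higher and 2 lower, against 0.825% and 1.12% of all genes. In the authors' deposited table, 7 histone genes were higher and 2 lower at an adjusted p under 0.05, of 31 with an adjusted p, and 3.37% of all its genes passed. Limma-voom called Hist2h2be higher and Hist1h2al lower and no other histone gene, against 0.881% and 0.923% of all tested genes.

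**Figure D2:**
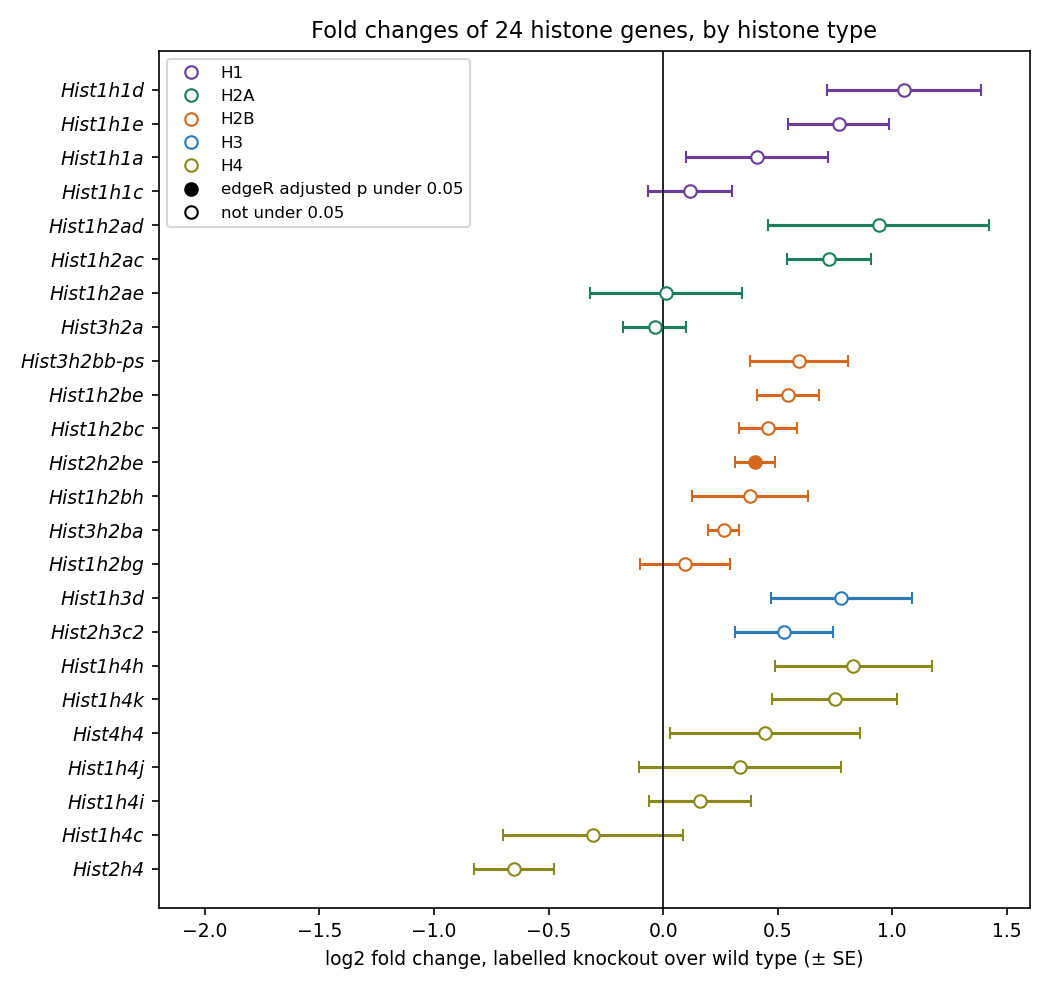
The log2 fold change of libraries labelled knockout over wild type with its SE (edgeR) for 24 of the 25 tested genes, grouped by histone type. Hist1h2al, which had no count in libraries labelled knockout, is left out. Of the 24, 21 lie right of 0, and the filled point marks Hist2h2be.

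Summed over all 62 genes, histone mRNA was 422 ± 71.0 CPM in libraries labelled knockout and 357 ± 52.9 CPM in wild-type libraries (SD, n = 5 each), a ratio of 1.18 with overlapping groups. By type, H2B summed to 189 ± 26.1 CPM in libraries labelled knockout and 142 ± 9.84 CPM in wild-type libraries, a ratio of 1.33. The H2B sums were 207, 189, 155, 221 and 174 CPM in K1 to K5, against 143, 154, 149, 128 and 138 CPM in W1 to W5. No H2B sum overlapped between groups, although K3 and W2 nearly met. H3 summed to 11.3 ± 3.08 CPM in libraries labelled knockout and 7.69 ± 2.09 CPM in wild-type libraries, a ratio of 1.47, with 3 libraries labelled knockout above every wild-type library. H1 was at 135 ± 35.4 CPM in libraries labelled knockout and 122 ± 29.7 CPM in wild-type libraries, and K1 and K4 exceeded all wild-type libraries. H2A was at 69.8 ± 8.38 CPM in libraries labelled knockout and 69.1 ± 17.5 CPM in wild-type libraries. Without Hist1h2al, which had no count in libraries labelled knockout, the wild-type H2A sum was 66.0 ± 16.5 CPM, a ratio of 1.06 with overlapping groups. H4 was at 17.0 ± 3.39 CPM in libraries labelled knockout and 16.1 ± 3.91 CPM in wild-type libraries. For H2A and H4 no library labelled knockout exceeded all wild-type libraries. These sums describe the libraries and were given no test.

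**Figure D3:**
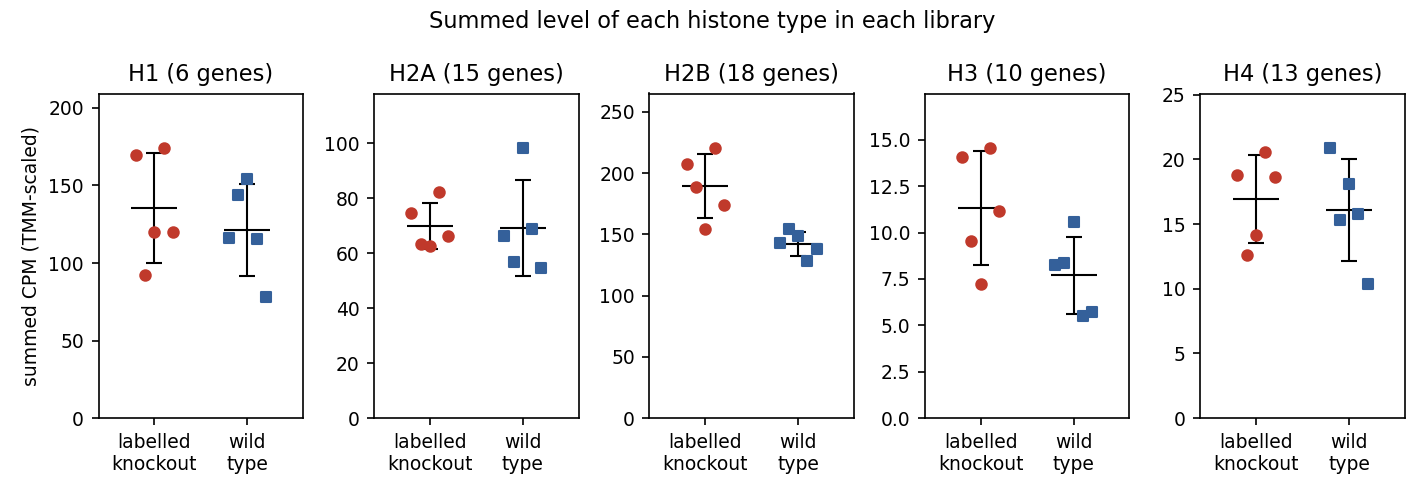
Summed CPM of each histone type in each library, with libraries labelled knockout (circles) left of wild type (squares), K1 to K5 and W1 to W5 from left to right. Lines are means and bars are SDs over 5 libraries. The H2B sums do not overlap, at 155 CPM in the lowest library labelled knockout and 154 CPM in the highest wild-type library, and the other types overlap.

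By cluster, the 5 Hist2 genes summed to 35.4 ± 4.31 CPM in libraries labelled knockout and 28.4 ± 1.98 CPM in wild-type libraries, a ratio of 1.25. The lowest library labelled knockout (31.2 CPM, K3) lay just above the highest wild-type library (30.9 CPM, W1). The ratio of libraries labelled knockout to wild type was 1.22 for the 53 Hist1 genes, 1.07 for the 3 Hist3 genes and 1.37 for Hist4h4, all with overlapping groups. The genes fell into 8 stretches of the genome (neighbours less than 100 kb apart). The largest stretch, 29 Hist1 genes on chromosome 13 at 23531050 to 23764406 (GRCm38), carried 63.5% of all histone counts. Its sum was 274 ± 57.1 CPM in libraries labelled knockout and 221 ± 37.0 CPM in wild-type libraries. A positive fold change was seen for 13 of its 14 tested genes, beside 50.4% of all tested genes. The stretch at 21715763 to 21837530 held 16 genes but 0.637% of the counts, with 2 genes tested.

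All 7 tested H2B genes had a positive log2 fold change, from 0.10 to 0.59, beside 50.4% of all tested genes. Of the 7, 5 were higher at an unadjusted p under 0.05, beside 6.78% of all tested genes. The 11 H2B genes left out by the filter summed to 171 counts in libraries labelled knockout and 177 in wild-type libraries. Hist2h2be (ENSMUSG00000068854.7, chromosome 3, 96221119 to 96223738, plus strand) had 880, 835, 814, 934 and 777 counts in K1 to K5, against 619, 591, 615, 810 and 584 counts in W1 to W5. Every library labelled knockout lay above every wild-type library, with the lowest at 22.7 and the highest wild type at 20.2 CPM. Such non-overlap in that direction was seen for 3 of the 25 tested genes and for 1.76% of all tested genes. The log2 fold change was 0.40 ± 0.087 (SE, edgeR adjusted p = 0.0278). The call was lost without K4 (adjusted p = 0.0850), without W3 (0.0683) and without W5 (0.0577), with a log2 fold change between 0.34 and 0.44 in all leave-one-out fits. No 100-base window of Hist2h2be is shared with another gene.

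The other two H2B genes without overlap did not pass the test. Hist1h2be had 22.5, 18.7, 18.4, 29.96 and 21.3 CPM in K1 to K5, against 17.3, 15.6, 15.4, 16.1 and 11.7 CPM in W1 to W5 (log2 fold change 0.54 ± 0.13, edgeR adjusted p = 0.0507). Its adjusted p fell below the threshold with RLE scaling, with no filter, with DESeq2 and without K2 or K3. Hist1h2be overlaps Hist1h1e on the same strand over 496 bases, so its counts are uncertain. Hist3h2ba had 40.7, 41.2, 38.3, 46.2 and 41.5 CPM in K1 to K5, against 34.5, 35.3, 37.4, 32.4 and 33.4 CPM in W1 to W5. Its log2 fold change was 0.26 ± 0.069 (edgeR adjusted p = 0.0631), the smallest SE of the 25 genes. Hist1h2bc, the most abundant H2B gene, had 115, 101, 70.3, 109 and 82.4 CPM in K1 to K5, against 66.7, 80.1, 74.1, 54.9 and 72.2 CPM in W1 to W5. Here K3 lay below W2, W3 and W5, and the log2 fold change of 0.46 ± 0.13 had an edgeR adjusted p of 0.0857. Hist3h2bb-ps, an H2B pseudogene, averaged 1.53 ± 0.32 CPM in libraries labelled knockout and 1.01 ± 0.18 CPM in wild-type libraries (log2 fold change 0.59, edgeR adjusted p = 0.203). It lies head to head with Hist3h2a, 172 bases apart.

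**Figure D4:**
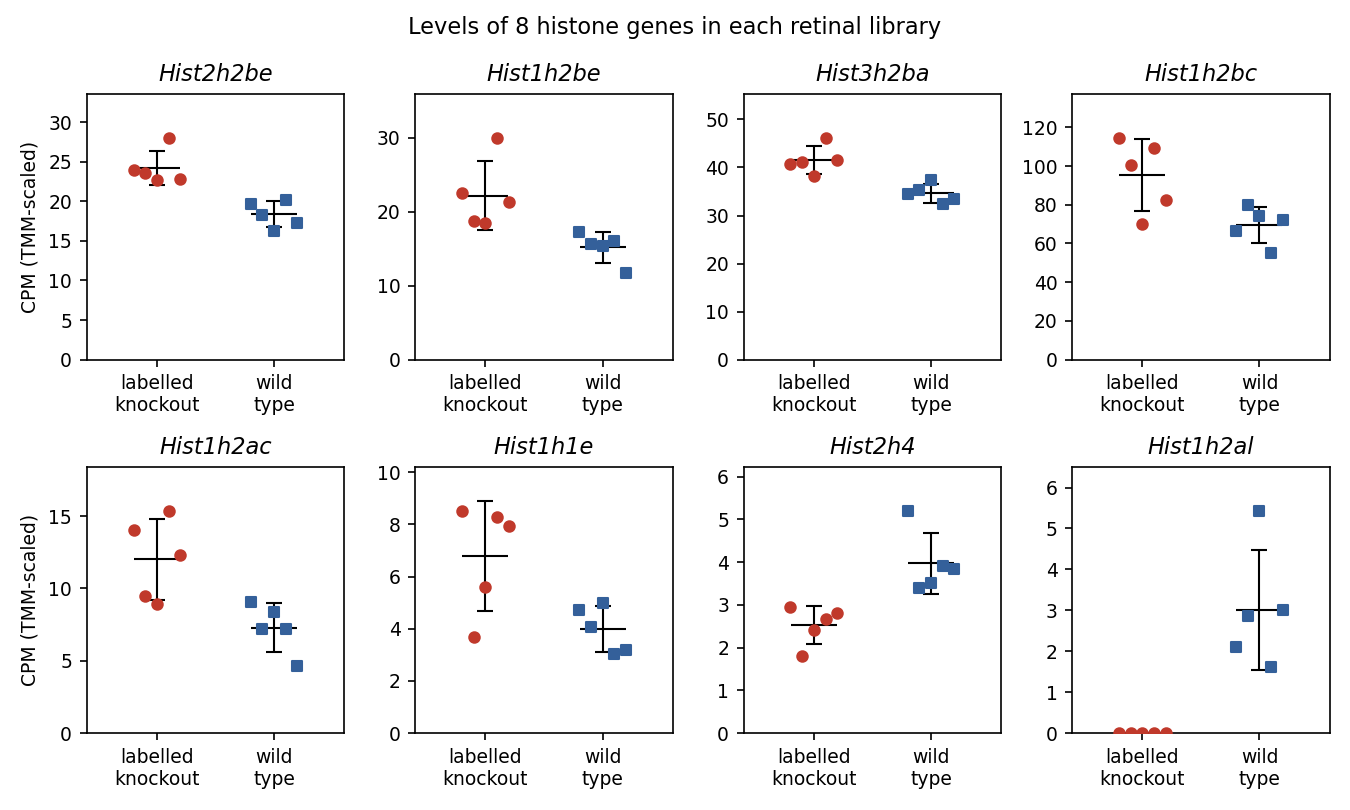
CPM of 8 histone genes in each library, with libraries labelled knockout (circles) left of wild type (squares). Lines are means and bars are SDs over 5 libraries. Hist2h2be, Hist1h2be and Hist3h2ba are higher in every library labelled knockout, Hist2h4 and Hist1h2al are lower in every one, and Hist1h2bc, Hist1h2ac and Hist1h1e overlap.

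H2A held the largest difference of the whole group, and it came from a retrocopy. Hist1h2al (ENSMUSG00000091383.2, chromosome 13, 51202727 to 51203065, minus strand) is annotated as a processed pseudogene and lies apart from the Hist1 cluster. It had no count in any of K1 to K5, against 66, 93, 205, 65 and 102 counts in W1 to W5. With 3 counts taken as the floor for the group's sum, it was at least 177-fold lower in libraries labelled knockout (edgeR adjusted p = 2.63e-05), a bound that covers counting error only. It was called in all 16 alternative fits, which reuse the same libraries and are not independent support. It passed the low-count filter only through the wild-type libraries, where it is high. Its 339 bases match 337 of those of Hist2h2aa1, a gene that was not analysed here, and 333 of those of Hist2h2ac. With positions counted from 1 at the 5′ end of Hist1h2al and the Hist2h2aa1 base given first, the 2 differences are T120C and G216T. The stretch that holds both is shown to let the copies be told apart, with the differing bases in capitals.
Hist1h2al, chr13:51202820-51202976, minus strand: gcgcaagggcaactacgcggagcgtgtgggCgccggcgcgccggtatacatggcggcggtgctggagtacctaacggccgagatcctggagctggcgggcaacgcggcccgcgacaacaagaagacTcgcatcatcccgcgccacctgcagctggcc
Hist2h2aa1, chr3:96245685-96245841, plus strand: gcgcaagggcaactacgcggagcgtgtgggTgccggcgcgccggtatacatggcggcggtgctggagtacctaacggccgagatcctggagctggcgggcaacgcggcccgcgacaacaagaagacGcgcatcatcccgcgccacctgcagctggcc

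The matching stretch lies within the coding sequence of Hist2h2aa1. Of the 100-base windows of Hist1h2al, 19.2% are found in transcripts of other genes. Hist1h2al also overlaps Gm44341, a miRNA gene on the opposite strand with 12 counts in all. Reads of this locus and of its near-identical copies may be assigned differently by other counting settings, which were not tested.

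The other H2A genes did not pass the test. Hist1h2ac, which faces Hist1h2bc across the promoter shown above, had 14.1, 9.48, 8.94, 15.3 and 12.3 CPM in K1 to K5, against 9.07, 7.17, 8.35, 7.17 and 4.62 CPM in W1 to W5. Its log2 fold change was 0.72 ± 0.18 (edgeR adjusted p = 0.0559), and the groups overlapped by K3, just below W1. The pair Hist1h2ac and Hist1h2bc together summed to 108 ± 20.7 CPM in libraries labelled knockout and 76.9 ± 9.49 CPM in wild-type libraries, with 4 of 5 libraries labelled knockout above every wild-type one. Hist3h2a, with the most counts of the H2A genes, stood at 56.1 ± 5.77 CPM in libraries labelled knockout and 57.5 ± 15.4 CPM in wild-type libraries (log2 fold change −0.04 ± 0.14, edgeR adjusted p = 0.945). W3 alone reached 83.5 CPM for Hist3h2a while the other 9 libraries lay between 46.0 and 65.1 CPM, and without W3 the log2 fold change turned to 0.14. Hist2h2ac, the neighbour of Hist2h2be across their shared promoter, had 31 counts in libraries labelled knockout and 34 in wild-type libraries and was not tested.

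None of the 4 tested linker histone genes passed the test. Hist1h1c had 159, 87.0, 112, 162 and 110 CPM in K1 to K5, against 109, 138, 147, 110 and 74.0 CPM in W1 to W5. The groups overlapped, with a log2 fold change of 0.12 ± 0.18 (edgeR adjusted p = 0.834), and without W5 it was −0.0065. Hist1h1e, another somatic linker histone, had 312, 130, 201, 276 and 271 counts in K1 to K5, against 148, 131, 189, 122 and 108 counts in W1 to W5 (log2 fold change 0.77 ± 0.22, edgeR adjusted p = 0.0997). K2 lay among the wild-type values, and the overlap with Hist1h2be on the same strand leaves the counts of Hist1h1e uncertain. Hist1h1d had 56, 36, 57, 114 and 52 counts in K1 to K5, against 32, 21, 42, 46 and 14 counts in W1 to W5. Its log2 fold change of 1.05 ± 0.34 (edgeR adjusted p = 0.147) was 0.69 without K4. The 5 linker histone genes other than Hist1h1c summed to 9.53 ± 2.90 CPM in libraries labelled knockout and 5.67 ± 1.22 CPM in wild-type libraries, a ratio of 1.68. They held 1.94% of all histone counts. Hist1h1b had 30 counts in libraries labelled knockout and 38 in wild-type libraries. Hist1h1t, a linker histone of male germ cells, had 11 counts in libraries labelled knockout and 12 in wild-type libraries.

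Only 2 of the 10 H3 genes could be tested, and neither passed. Hist2h3c2 had 400, 278, 192, 350 and 242 counts in K1 to K5, against 179, 226, 297, 171 and 139 counts in W1 to W5 (log2 fold change 0.53 ± 0.21, edgeR adjusted p = 0.283). Of its 100-base windows 61.6% are found in other genes, so these counts may stand for more than 1 gene. Hist1h3d had 75, 36, 48, 100 and 100 counts in K1 to K5, against 43, 26, 66, 36 and 40 counts in W1 to W5 (log2 fold change 0.78 ± 0.31, edgeR adjusted p = 0.265). The groups overlapped for both genes. Of the H3 genes left out, Hist1h3a had 23 counts in libraries labelled knockout and 32 in wild-type libraries, and Hist1h3e had 32 counts in libraries labelled knockout and 13 in wild-type libraries.

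The H4 genes had fold changes of both signs. All H4 genes are known to encode the same protein, so they differ here only as transcripts. Hist2h4 (ENSMUSG00000091405.2, chromosome 3, 96261682 to 96263311, minus strand) had 108, 64, 87, 89 and 96 counts in K1 to K5, against 163, 110, 133, 157 and 130 counts in W1 to W5. Its level was 2.53 ± 0.45 CPM in libraries labelled knockout and 3.97 ± 0.71 CPM in wild-type libraries. Every library labelled knockout lay below every wild-type library, as it did for 1.72% of all tested genes, but the log2 fold change of −0.65 ± 0.18 had an edgeR adjusted p of 0.0751. DESeq2 called it (adjusted p = 0.0102), and no leave-one-out fit did. Hist1h4k and Hist1h4h had log2 fold changes of 0.75 ± 0.27 and 0.83 ± 0.34 (edgeR adjusted p = 0.216 and 0.295). Hist1h4i, with the most counts of the H4 genes, had 8.53 ± 1.54 CPM in libraries labelled knockout and 7.64 ± 2.67 CPM in wild-type libraries and a log2 fold change of 0.16 ± 0.22 (edgeR adjusted p = 0.814), which was −0.02 without W5. Hist4h4, alone on chromosome 6, had 50, 40, 51, 49 and 58 counts in K1 to K5, against 40, 19, 53, 71 and 4 counts in W1 to W5, so its wild-type values were the more scattered. Hist2h4 and Hist2h2be lie in the same stretch of chromosome 3 and had log2 fold changes of opposite sign.

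The 37 genes left out by the filter had 2 to 94 counts each over the 10 libraries, in all 581 counts in libraries labelled knockout and 532 in wild-type libraries, or 0.814% of all histone counts. Hist1h4d (H4) had 54 counts in libraries labelled knockout against 40 in wild type, and Hist1h4a (H4) had 23 against 22 in wild type. Hist1h2bj (H2B) had 53 counts in libraries labelled knockout against 35 in wild type, and Hist1h2bb (H2B) had 21 against 40 in wild type. Hist2h2ab (H2A) had 31 counts in libraries labelled knockout against 17 in wild type. Hist1h2bk stood out among them, with 1, 1, 0, 0 and 1 counts in K1 to K5, against 5, 8, 8, 9 and 1 counts in W1 to W5. The ratio of libraries labelled knockout to wild type was 0.097 (exact 95% interval 0.019 to 0.310, counting error only). W5 had no more counts than K1, K2 or K5, and the gene passed the test only when no filter was used (edgeR adjusted p = 0.0308). Its head-to-head neighbour Hist1h2ah, 301 bases away, had 1 count in libraries labelled knockout and 14 in wild-type libraries (ratio 0.071, exact 95% interval 0.0017 to 0.469). Hist1h2ah was singled out after its values were seen, as the partner of Hist1h2bk. Other genes held 70.8% of the windows of Hist1h2bk and 89.5% of those of Hist1h2ah, so these few reads are uncertain in origin. Other low genes had more counts in the libraries labelled knockout, and they too were singled out after their values were seen. Hist1h2ba had 16 counts in libraries labelled knockout and 5 in wild-type libraries (ratio 3.20, exact 95% interval 1.12 to 11.2), and its head-to-head neighbour Hist1h2aa had 11 counts in libraries labelled knockout and 3 in wild-type libraries. Hist1h2bf had 35 counts in libraries labelled knockout and 14 in wild-type libraries (exact 95% interval of the ratio 1.31 to 5.03). These intervals cover counting error only, not the spread between libraries.

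Genes that act on histone mRNA and protein were read from lists. Of 18 genes for histone mRNA processing and transcription, such as those of SLBP and its partners, all were tested and 0 were called by edgeR, with 1 higher and 1 lower at an unadjusted p under 0.05. Of 12 tested genes for variant and other histones outside the clusters, 0 were called, and again 1 was higher and 1 lower at that level. Of 21 histone chaperones 0 were called, with 2 higher and 0 lower at that level. DESeq2 and limma-voom also called 0 genes of these 3 lists. The median log2 fold changes of the 3 lists were −0.01, 0.07 and −0.00073, beside 0.0018 over all tested genes.

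Markers of proliferating cells were read because most of these histone genes are known for their S-phase expression. Of 18 tested markers, Ccna2, which encodes a cyclin of S and G2 phase, was called higher, at 38.1 ± 10.3 CPM in libraries labelled knockout and 20.9 ± 6.36 CPM in wild-type libraries (log2 fold change 0.87 ± 0.21, edgeR adjusted p = 0.0451). The call was lost in 9 of the 16 alternative fits, with a log2 fold change from 0.71 to 1.01. The summed markers lay between 131 and 160 CPM in libraries labelled knockout and between 104 and 126 CPM in wild-type libraries, without overlap. Counts of the markers were uneven: over all 10 libraries Mki67 had 28 and Top2a 48, while Pcna had 20415 and Ccna2 10346. Without Ccna2 and Pcna, which encodes a clamp of DNA replication, the sum of the other 23 markers was 37.7 to 46.2 CPM in libraries labelled knockout and 40.4 to 45.0 CPM in wild-type libraries. The list had 2 markers higher and 3 lower at an unadjusted p under 0.05, and its median log2 fold change was −0.02. Without that pair the sums overlapped, a choice made after the sums were seen. The part of these markers in the histone levels was not tested.

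Marker lists of other cells held 3 genes that edgeR called, named after their values were seen. Sag, the rod arrestin, was at 4819 ± 646 CPM in libraries labelled knockout and 7682 ± 540 CPM in wild-type libraries (edgeR adjusted p = 0.00267). C1qc, a complement gene of microglia, was at 4.62 ± 0.43 CPM in libraries labelled knockout and 2.72 ± 0.68 CPM in wild-type libraries (edgeR adjusted p = 0.0342). This call was lost in 8 of the 16 alternative fits, with an adjusted p of up to 0.105. Sycp1, a gene of meiotic chromosomes, was at 0.0056 ± 0.012 CPM in libraries labelled knockout and 2.59 ± 0.93 CPM in wild-type libraries (edgeR adjusted p = 2.41e-07). Summed markers of male germ cells ran from 2.04 to 3.33 CPM in libraries labelled knockout and from 3.97 to 7.61 CPM in wild-type libraries. Without Sycp1 these sums overlapped, at 2.04 to 3.33 CPM in libraries labelled knockout and 1.75 to 3.46 CPM in wild-type libraries. The sums for rods, other retinal cells, microglia, blood vessels, lens, erythroid cells and progenitors overlapped between the groups. DESeq2 also called C1qb (microglia) and Kdr (blood vessels). The part of these genes in the histone levels was not tested. In retinal tissue, fewer cells of a type and less RNA per cell cannot be told apart.

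RNAs that mostly carry no poly(A) tail, and mitochondrial ribosomal RNA as a separate set, were put beside the histone genes. This choice was made after the data were seen. Rn7sk ran from 1.75 to 7.46 CPM in libraries labelled knockout and from 3.87 to 16.2 CPM in wild-type libraries. Genes annotated as ribosomal RNA summed to 241 to 812 CPM in libraries labelled knockout and 455 to 1228 CPM in wild-type libraries. For both, the ranges overlapped and their ends lay lower in the libraries labelled knockout. Small nuclear RNA genes summed to 27.2 to 45.1 CPM in libraries labelled knockout and 27.9 to 41.5 CPM in wild-type libraries. Small nucleolar RNA genes summed to 37.7 to 50.7 CPM in libraries labelled knockout and 35.4 to 52.6 CPM in wild-type libraries. Rpph1 ran from 0.42 to 2.94 CPM in libraries labelled knockout and from 0.55 to 2.64 CPM in wild-type libraries, so the ranges of these 3 overlapped too, and Rmrp was at most 0.93 CPM in any library. Mitochondrial ribosomal RNA summed to 3901 to 5056 CPM in libraries labelled knockout and 2372 to 3197 CPM in wild-type libraries, without overlap. Their part in the histone levels was not tested.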

How the data were processed

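RNA was measured in 5 retinal libraries labelled as the Il6 knockout line and 5 labelled wild type, grouped by the genotype label. K1 to K5 and W1 to W5 are names in accession order and pair no libraries. The authors deposited whole-number counts of reads per gene for 36115 genes. The submitters' processing notes name STAR 2.5.3a, featureCounts 1.15.2 and DESeq2 1.14 beside bcl2fastq and FastQC, and the build GRCm38.p5. A DESeq2 comparison by the authors stands in further columns, per the file headers, and of it the deposited log2 fold changes and adjusted p-values served to count their calls. Its deposited mean signal was not used.

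Genes were filtered with edgeR 4.0.16 filterByExpr (minimum count 10, minimum total count 15), leaving 18965, and scaled with TMM. They were tested with the quasi-likelihood test (glmQLFit, glmQLFTest), Benjamini-Hochberg adjusted over all of them and called at 0.05. The SE of a log2 fold change was worked back from the F statistic. CPM are relative to TMM-scaled totals, and exact 95% intervals cover counting error only. The alternatives were DESeq2 1.42.0, limma-voom (limma 3.58.1), RLE and upper-quartile scaling, no filter, at least 1 CPM in 5 libraries, and each library left out. Simulated data with 200 changed genes were used to check the fit.

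The histone genes and gene lists were chosen with earlier results of these data known. Named histone genes were those called in the edgeR, no-filter, DESeq2 or limma-voom fit, those with an unadjusted p under 0.05, the 3 highest of each type, the 2 highest of each type left out by the filter, and those whose groups did not overlap. Identifiers, coordinates and transcripts were matched to GENCODE M21, where all 62 genes had the same coordinates, and promoters to RefSeq. Letters were searched by exact match, and shared windows on both strands of other transcripts. Protein sequences were not used here.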

Additional observations from a re-analysis of the deposited data

Results flagged for a closer look

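In 46 groups of 5 values, drawn by genotype from the named histone genes and the histone sums, a library far from the other 4 was looked for. Dixon's critical value was 0.71, and not every named gene was among these groups. A share of about 1 in 20 groups is flagged by chance, and 2 were. Both were K4: Hist1h1d at 3.42 CPM, against 1.02 to 1.59 CPM in the other libraries labelled knockout, and Hist2h2be at 28.0 CPM, against 22.7 to 24.0 CPM. K4 lay in the direction of the difference from the wild type in both genes.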

How the results depend on the processing

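No paired analysis was possible because the labels carry no replicate numbers. The count of all genes called higher was 163, and it was 298 with no filter, 319 with DESeq2 and 71 to 253 when each library was left out (93 without K3, 71 without K4, 84 without K5 and 253 without W2). The count called lower was 222, and it was 406 with no filter, 444 with DESeq2 and 140 to 289 with a library left out (140 without K4). Of the histone genes, 1 was called higher, and 2 were with RLE scaling, 5 with no filter, 7 with DESeq2 and 0 to 4 with a library left out (3 without K2, 4 without K3, 2 without W1 or W2, and 0 without K4, W3 or W5). The count of histone genes called lower was 1, and 2 with no filter or DESeq2, and it was 1 in every leave-one-out fit. The cause of these shifts was not tested. Among 17 named and tested histone genes, 246 of 271 fold changes under an alternative kept their direction and side of the threshold, and 22 moved to the other side of it. The other 3 turned round: Hist1h1c without W5 (−0.0065, range −0.0065 to 0.23 with each library left out), Hist1h4i without W5 (−0.021, range −0.021 to 0.31) and Hist3h2a without W3 (0.14, range −0.11 to 0.14). The summed levels by type and cluster moved by less than the spread between libraries in all 120 recomputed values. Leaving out each library left 19 to 21 positive fold changes and 9 to 13 histone genes higher at an unadjusted p under 0.05, an alternative chosen after the data were seen. Of all tested genes, 49.5% to 50.7% were positive and 5.05% to 8.22% were higher at that level in these fits. The 37 genes left out by the filter had 2 to 94 counts each, and the cause of their low counts was not tested. For the 21 genes that share more than 50% of their 100-base windows, the treatment of reads with several matches is unknown.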
